A study of Mus musculus with 12 samples.

Results

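Retinoid signalling genes were followed along the rostral to caudal axis of the embryonic mouse neocortex, with 9 genes chosen by name: the binding proteins Rlbp1, Crabp1, Crabp2 and Rbp4, the enzymes Dhrs3 and Cyp26b1, and the receptors Rara, Rarb and Rxra. A gene was followed through every probe that carries its symbol in the platform annotation. Of the 9 genes, 8 had a probe (13 probes in all, of 21998 on the array), 7 had values in enough pools to be tested, among 11490 named genes tested, Rbp4 had too few pools and Cyp26b1 had no probe of its symbol. RNA from the rostral end of the neocortex at E13.5, a mid-gestation stage, was co-hybridised with caudal RNA on arrays read in 2 dyes, Cy3 and Cy5. There were 3 pools of the inbred strain C57 (C57Bl\6 in the design text) and 3 pools of the outbred strain MF1, each of 3 embryos per the labels, with no mutation or treatment named for either strain. A dye swap put every pool on 2 arrays, 12 in all. The cDNA had been amplified by the SMART polymerase chain reaction method, per the design text. Values below are log2 ratios, rostral over caudal, so a value above 0 means more signal rostrally and a value below 0 more signal caudally.

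Retinoic acid is made from retinol (vitamin A) in consecutive oxidations, through retinaldehyde, and it acts by binding nuclear receptors of the RAR family, which sit on DNA as pairs with RXR receptors. Carrier proteins hold the poorly soluble retinoids in blood and inside cells, and the enzymes of the CYP26 family break retinoic acid down. In the developing forebrain the meninges are a known source of retinoic acid, and the gene for the receptor Rarb is a classical direct target of the pathway.

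Promoter windows are shown for 3 genes: Rarb, because it holds the textbook binding element of the receptors, and Rlbp1 and Dhrs3, because the results on the rostral and the caudal side rest on them. Each window runs from 250 bases before to 50 bases after an annotated start, 5′ to 3′ on the strand of the gene, and comes from RefSeq, build GRCm38.p6. The Rarb window is chr14:16575427-16575726, minus strand, and the Rlbp1 window chr7:79386978-79387277, minus strand. The Dhrs3 window shown is chr4:144892577-144892876, plus strand. Other Dhrs3 windows, which begin at 144892827 and 144892887, were searched but are not shown. Capitals mark the only match to the DR5 element.
Rarb: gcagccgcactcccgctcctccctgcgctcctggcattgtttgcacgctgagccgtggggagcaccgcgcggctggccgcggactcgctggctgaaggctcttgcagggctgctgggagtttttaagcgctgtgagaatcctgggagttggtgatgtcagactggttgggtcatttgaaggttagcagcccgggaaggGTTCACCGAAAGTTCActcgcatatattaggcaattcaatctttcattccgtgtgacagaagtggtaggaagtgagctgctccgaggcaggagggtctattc
Rlbp1: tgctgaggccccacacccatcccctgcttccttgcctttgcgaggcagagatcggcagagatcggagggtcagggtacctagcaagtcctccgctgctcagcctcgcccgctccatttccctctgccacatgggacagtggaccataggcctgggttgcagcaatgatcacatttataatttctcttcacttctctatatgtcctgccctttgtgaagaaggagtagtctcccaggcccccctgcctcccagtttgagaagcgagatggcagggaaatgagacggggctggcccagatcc
Dhrs3: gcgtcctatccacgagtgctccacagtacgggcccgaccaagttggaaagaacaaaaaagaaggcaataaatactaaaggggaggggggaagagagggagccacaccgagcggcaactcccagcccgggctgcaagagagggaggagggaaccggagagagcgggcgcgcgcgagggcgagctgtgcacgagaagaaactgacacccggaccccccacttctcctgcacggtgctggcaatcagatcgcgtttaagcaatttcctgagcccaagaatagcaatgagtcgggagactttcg

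The DR5 element, a direct repeat that receptor pairs of RAR and RXR bind, was searched on both strands as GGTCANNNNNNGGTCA, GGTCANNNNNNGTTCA, GTTCANNNNNNGGTCA and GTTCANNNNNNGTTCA. It was present in 81 of 32851 windows, or 0.247%, which belonged to 73 of 27025 genes. RefSeq windows were matched for 8 of the 9 retinoid genes (15 windows). Among them only the Rarb window held a match, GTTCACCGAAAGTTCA, whose first base lies 52 bases before the start (-52). The shorter DR2 spacing, searched as GGTCANNNGGTCA, GGTCANNNGTTCA, GTTCANNNGGTCA and GTTCANNNGTTCA, was found in 0.399% of windows and in 0 windows of the retinoid genes. These matches describe letters in the windows shown, and a window without a match says nothing of binding elsewhere.

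Between 17998 and 19252 probes had a value on the C57 arrays and between 19453 and 20997 on the MF1 arrays. The spread of log2 ratios over probes, as an SD estimated from the median absolute deviation, averaged 0.745 on C57 arrays and 0.487 on MF1 arrays. Each array held 1 strain, so strain and array set cannot be told apart. Which channel is the numerator is not given in the sources, so the direction is the likely one. With Cy5 over Cy3 assumed, Nr2f1 and Lhx2, factors of known caudal bias, were below 0 on 12 of 12 arrays. Sfrp1 and Fgfbp3 were above 0 on 12 of 12 arrays. In longer lists of axis genes, 2 of 6 tested caudal genes had a mean above 0, and 3 of 10 tested rostral genes a mean below 0. Pools agreed weakly over features, with a highest Spearman correlation of 0.28, between MF1 pools 1 and 2. C57 pool 1 correlated at 0.0079 with C57 pool 2 and at -0.072 with MF1 pool 2. MF1 pool 3 correlated at -0.22 with MF1 pool 1, at -0.21 with MF1 pool 2 and at 0.22 with C57 pool 1. Results that rest on MF1 pool 3 are given with and without it. Both turned arrays of a pool correlated at -0.30, -0.16 and -0.13 in C57 pools 1 to 3 and at 0.12, 0.043 and 0.24 in MF1 pools 1 to 3. In C57 the part of a ratio that followed the dye was larger than the rostral over caudal part for 60.8% of probes, and in MF1 for 51.8%. The labels do not tell whether a strain's pools were from different litters, so p-values measure the spread between these pools, which may be technical. Over both strains, 0 of 14418 features (0%) passed an adjusted p of 0.05 in the limma fit of pool means, and the smallest adjusted p was 0.147. No gene below is therefore called changed by that test. Ratios carry no level, so the tissue's defining markers could not be checked for presence. In bulk tissue, fewer cells of a type and less RNA per cell cannot be told apart.

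Rlbp1, which carries retinaldehyde in the visual cycle of the eye and is also made by glial cells, was the only one of the 7 tested genes with a ratio above 0 in every pool. Its ratio was 0.80, 0.76 and 1.065 in C57 pools 1, 2 and 3, and 0.96, 0.51 and 0.64 in MF1 pools 1, 2 and 3. All pools of both strains lay above 0 and the strains overlapped. On single arrays with rostral RNA in Cy3 and then Cy5, Rlbp1 gave 0.53 and 1.07, 0.057 and 1.47, and 0.67 and 1.46 in the C57 pools, and pairs of arrays below keep this order. The same pairs were 1.01 and 0.91, 0.34 and 0.67, and 0.84 and 0.44 in the MF1 pools. Rlbp1 was thus above 0 on 12 of 12 arrays, which 0.253% of the probes measured on all arrays were, and above 0 in 6 of 6 pools, which 3.47% of features with 6 pools were. The mean was 0.79 ± 0.20 (SD, n = 6 pools), a 1.73-fold ratio, with a 95% confidence interval of 0.51 to 1.07. Rlbp1 ranked 14 of 14418 features by p and did not pass (limma, adjusted p = 0.29). Its p stood among the 4.34% of features with an unadjusted p under 0.05 on the rostral side. A limma fit of all 12 arrays, in which the pool was a random block, did pass Rlbp1, with an adjusted p of 0.0295, but it counted both arrays of a pool as nearly independent (consensus correlation 0.00624). Without MF1 pool 3 its mean was 0.81. The ratio averaged 0.88 ± 0.16 in C57 and 0.70 ± 0.23 in MF1 (SD, n = 3 each), and the difference of 0.17 had an interval of -0.38 to 0.73 (limma, adjusted p = 0.974).

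**Figure D1:**
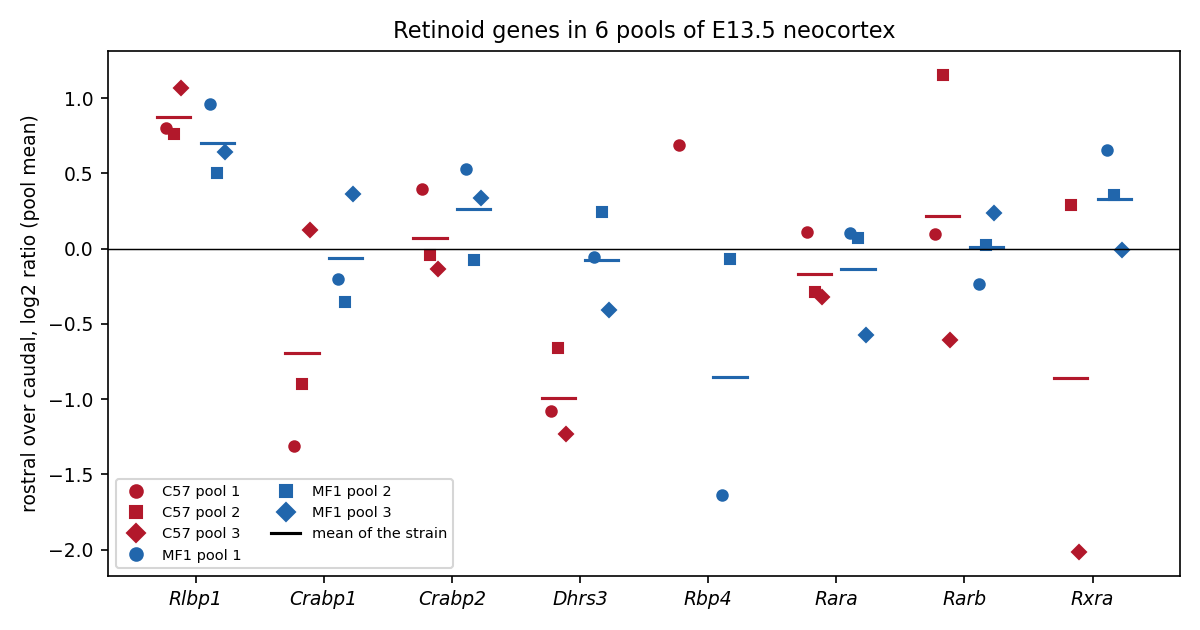
Log2 ratio of rostral over caudal cortex (y axis) of 8 retinoid genes (x axis) in each pool, red for C57 and blue for MF1, with a symbol per pool number and a line at the mean of a strain where it has more than 1 pool. Rlbp1 lies above 0 in all 6 pools, and Dhrs3 lies lower in every C57 pool than in any MF1 pool.

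Crabp1 binds retinoic acid in the cytoplasm and is known to buffer its supply to the nucleus. Its ratio was -1.31, -0.90 and 0.12 in C57 pools 1, 2 and 3, and -0.20, -0.36 and 0.36 in MF1 pools 1, 2 and 3. The C57 pools held both the lowest values and a value above 0, so the strains overlapped. The mean was -0.38 ± 0.63 (SD, n = 6), with an interval of -0.88 to 0.12 (limma, adjusted p = 0.621). It averaged -0.70 ± 0.74 in C57 and -0.065 ± 0.38 in MF1 (SD, n = 3 each), and the difference of -0.63 had an interval of -1.62 to 0.36 (limma, adjusted p = 0.944). Without MF1 pool 3 the mean over both strains was -0.49, without C57 pool 1 it was -0.23 and without C57 pool 3 it was -0.58. The difference between C57 and MF1 was -0.42 without MF1 pool 3, -0.32 without C57 pool 1 and -1.04 without C57 pool 3.

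The C57 mean of Crabp1 rested on a single dye orientation. With rostral RNA in Cy3 it gave -2.65, -2.04 and -1.11 in C57 pools 1, 2 and 3, while with rostral RNA in Cy5 it gave 0.032, 0.24 and 1.35. The sign of Crabp1 thus turned with the dye in every C57 pool. The dye part, which is the ratio on the array with rostral RNA in Cy5 minus the pool mean, was 1.24 ± 0.10 in C57 (SD, n = 3), a size that 5.39% of probes reached there, against a median of 0.265 over all C57 probes. In MF1 the dye part of Crabp1 was -0.034 ± 0.12 and its arrays ran from -0.50 to 0.45. Over both strains the arrays with rostral RNA in Cy3 alone gave Crabp1 a mean of -0.98 and those with rostral RNA in Cy5 alone a mean of 0.22.

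**Figure D2:**
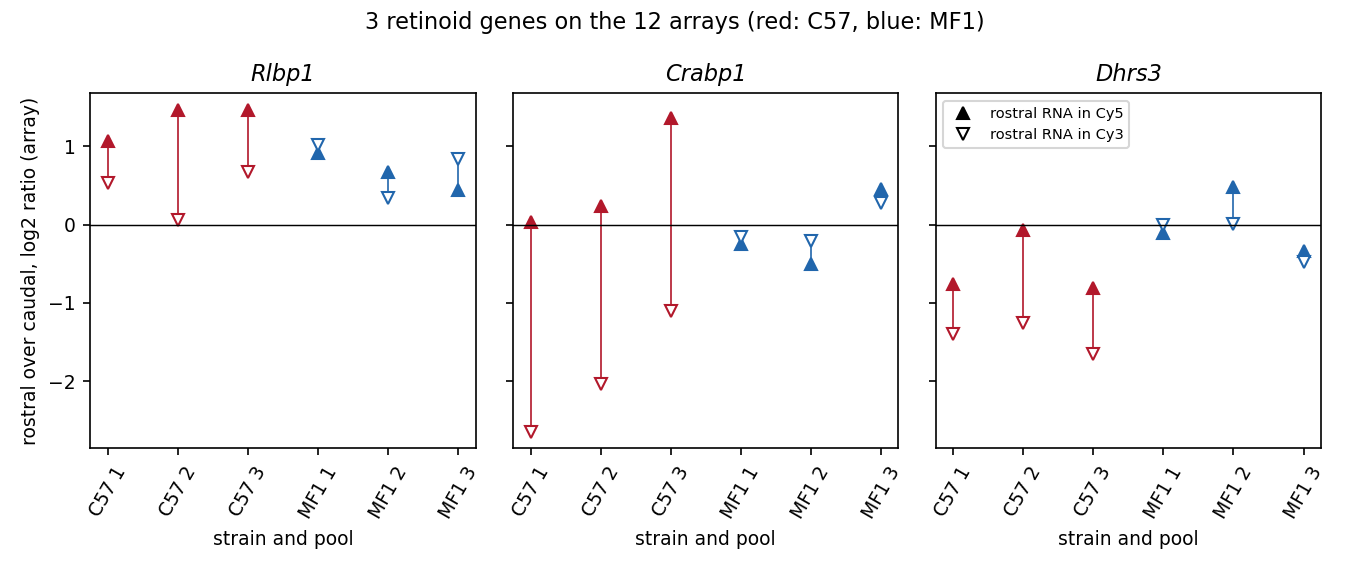
Log2 ratio of rostral over caudal cortex (y axis) of Rlbp1, Crabp1 and Dhrs3 on each of the 12 arrays, by strain and pool (x axis), filled upward triangles for rostral RNA in Cy5 and open downward triangles for rostral RNA in Cy3, joined within a pool. Rlbp1 is above 0 on every array, Crabp1 crosses 0 between the dyes in each C57 pool, and Dhrs3 is below 0 on all 6 C57 arrays.

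Crabp2, the sister protein that delivers retinoic acid to the receptors, had small ratios on both sides of 0. Its ratio was 0.40, -0.041 and -0.13 in C57 pools 1, 2 and 3, and 0.53, -0.074 and 0.33 in MF1 pools 1, 2 and 3. Both strains had pools on either side of 0. The mean was 0.17 ± 0.28 (SD, n = 6), with an interval of -0.15 to 0.49 (limma, adjusted p = 0.73), and the difference between C57 and MF1 of -0.19 had an interval of -0.83 to 0.45 (adjusted p = 0.977). With arrays not centred, which moved the median of all features to -0.18, the mean of Crabp2 was -0.020.

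Rbp4, the carrier of retinol in blood, had a value on 8 of 12 arrays and both dyes in 3 pools, and it was not tested. Its pool ratios were 0.69 in C57 pool 1, and -1.63 and -0.070 in MF1 pools 1 and 2. The arrays behind them gave 1.77 and -0.38 in C57 pool 1, -3.06 and -0.21 in MF1 pool 1, and -0.49 and 0.35 in MF1 pool 2. C57 pool 2 and MF1 pool 3 had a value in Cy3 alone, at 5.85 and -0.32. The sign of Rbp4 turned with the dye in C57 pool 1 and MF1 pool 2, and no direction is given for it.

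Dhrs3, a reductase that turns retinaldehyde back into retinol and is itself induced by retinoic acid, lay below 0 in every C57 pool. Its ratio was -1.08, -0.66 and -1.23 in C57 pools 1, 2 and 3, and -0.052, 0.24 and -0.41 in MF1 pools 1, 2 and 3. Every C57 pool lay below every MF1 pool, an order seen in 5.7% of features with 6 pools. The C57 mean was -0.99 ± 0.29 (SD, n = 3), a 1.99-fold ratio towards the caudal end with an interval of -1.45 to -0.53, and the MF1 mean was -0.073 ± 0.32 (SD, n = 3) with an interval of -0.54 to 0.39. In C57 alone Dhrs3 did not pass (limma, adjusted p = 0.241), though it stood among the 5.48% of features with an unadjusted p under 0.05 on the caudal side. The difference between C57 and MF1 was -0.92, with an interval of -1.57 to -0.26, and did not pass either (limma, adjusted p = 0.729). It was among the 3.61% of features with a difference below 0 at an unadjusted p under 0.05.

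On single arrays with rostral RNA in Cy3 and then Cy5, Dhrs3 gave -1.40 and -0.765, -1.255 and -0.066, and -1.65 and -0.81 in C57 pools 1, 2 and 3. In the MF1 pools the pairs were 0 and -0.105, 0.0020 and 0.48, and -0.47 and -0.34. All 6 C57 arrays of Dhrs3 were below 0, as for 3.03% of probes measured on all C57 arrays, while 3 of 6 MF1 arrays were below 0. The dye part of Dhrs3 was 0.44 ± 0.14 in C57 (SD, n = 3), reached in size by 29.5% of probes there. On the arrays with rostral RNA in Cy3 alone, the C57 mean of Dhrs3 was -1.43 and passed (limma, adjusted p = 0.0448), as did 188 features in all. On those with rostral RNA in Cy5 alone it was -0.55 and did not pass (limma, adjusted p = 0.295). Over both strains the mean was -0.53 ± 0.57 (SD, n = 6), with an interval of -0.86 to -0.20 (limma, adjusted p = 0.448), among the 4.64% of features with an unadjusted p under 0.05 on the caudal side. Without MF1 pool 3 it was -0.45 over both strains and 0.094 in MF1. Cyp26b1, which degrades retinoic acid, has no value here.

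None of the 3 receptors kept the same sign across the pools. Rara, a widely made receptor of retinoic acid, had 5 probes whose average was 0.11, -0.29 and -0.32 in C57 pools 1, 2 and 3, and 0.105, 0.072 and -0.57 in MF1 pools 1, 2 and 3. Each strain had pools on both sides of 0. The mean was -0.15 ± 0.29 (SD, n = 6), with an interval of -0.48 to 0.18 (limma, adjusted p = 0.771), and the difference between C57 and MF1 of -0.033 had an interval of -0.70 to 0.63 (adjusted p = 0.998). The probes disagreed, with means of -0.42, -0.11 and -0.096 over 6 pools, and of 0.26 over 2 and 0.11 over 3 MF1 pools. The low value of MF1 pool 3 came from 1 probe of Rara at -1.89, whose arrays gave 0.14 and -3.93, while the other probes with a value there gave -0.11, -0.18 and -0.12. Without MF1 pool 3 the mean of Rara was -0.039.

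Rarb, the receptor whose promoter holds the DR5 match shown above, had 2 probes. Their average was 0.094, 1.16 and -0.61 in C57 pools 1, 2 and 3, and -0.24, 0.026 and 0.24 in MF1 pools 1, 2 and 3. The C57 pools spread far wider than the MF1 pools, at 0.21 ± 0.89 against 0.0085 ± 0.24 (SD, n = 3 each). The mean over both strains was 0.11 ± 0.59 (SD, n = 6), with an interval of -0.43 to 0.65 (limma, adjusted p = 0.903). It was -0.12 without C57 pool 2 and 0.32 without C57 pool 3. The difference between C57 and MF1 of 0.21 had an interval of -0.87 to 1.28 (limma, adjusted p = 0.989). The probes averaged 0.29 and -0.064, and the first gave 3.38 and -3.08 on the arrays of C57 pool 1.

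Rxra, a partner receptor that pairs with the RAR proteins, had both dyes in 5 pools. Its ratio was 0.29 and -2.01 in C57 pools 2 and 3, and 0.65, 0.36 and -0.010 in MF1 pools 1, 2 and 3. C57 pool 1 had a value in Cy3 alone, at -0.98, and did not enter. C57 pool 3 lay far below the other 4 pools. Its arrays gave -0.32 and -3.705 there, and -1.43 and 2.02 in C57 pool 2. The fitted mean over both strains was -0.26, with an interval of -1.11 to 0.59 (limma, adjusted p = 0.841), and it was 0.31 without C57 pool 3. The ratio averaged -0.86 ± 1.63 (SD, n = 2) in C57 and 0.33 ± 0.33 (SD, n = 3) in MF1, and the difference of -1.19 had an interval of -2.90 to 0.51 (adjusted p = 0.94). That difference was -0.041 without C57 pool 3 and -2.35 without C57 pool 2.

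Of the 7 tested genes, 3 had a mean above 0 and 4 below, with a median of -0.15, against 0.0091 over all features. At an unadjusted p under 0.05, 1 was on the rostral side (Rlbp1) and 1 on the caudal side (Dhrs3), beside the 4.34% and 4.64% of all features, and 0 passed after adjustment. Ordered by their mean over both strains, the genes ran from Dhrs3 over Crabp1, Rxra, Rara, Rarb and Crabp2 to Rlbp1. The intervals of all neighbours in that order overlapped, except that Rlbp1, with a lower bound of 0.51, lay just above the upper bound of 0.49 of Crabp2. Without MF1 pool 3 the means of Crabp2, Rarb and Rxra were 0.15, 0.054 and -0.18.

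**Figure D3:**
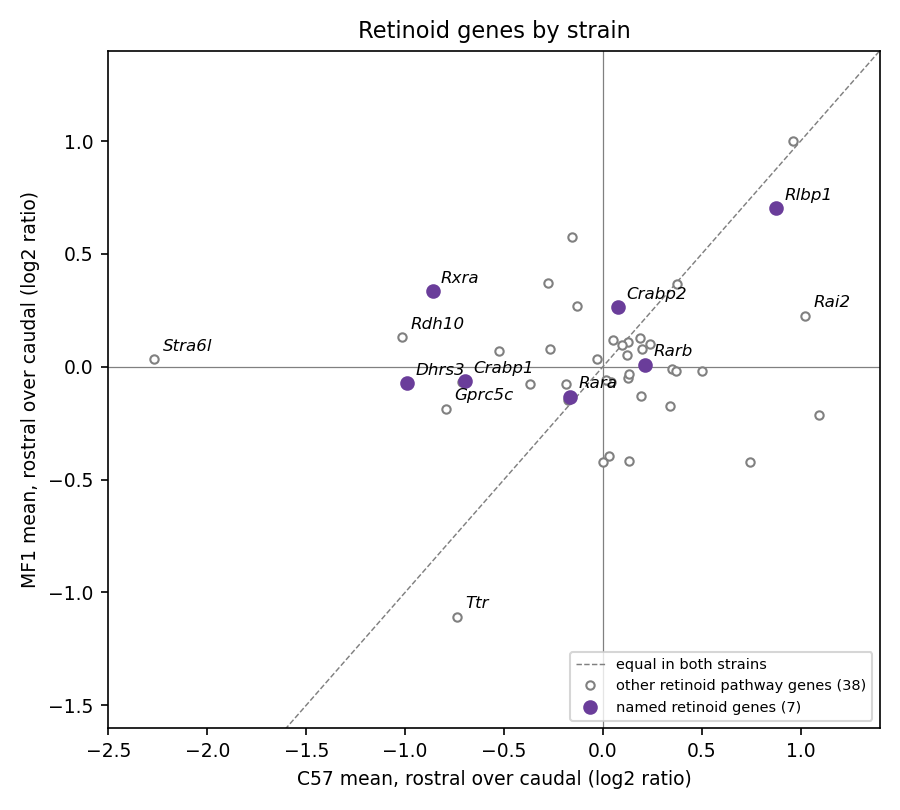
Mean log2 ratio of rostral over caudal cortex in C57 (x axis) and in MF1 (y axis), for the 7 tested retinoid genes (filled) and 38 other genes of the pathway (open), with the dashed line at equal ratios. Rlbp1 lies near the line at 0.88 in C57 and 0.70 in MF1. Dhrs3, Crabp1, Rdh10 and Stra6l have C57 means far from 0 and MF1 means near 0. The C57 mean of Crabp1 turned in sign with the dye, and that of Stra6l rests on 2 pools.

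Other genes of the pathway were taken from a list of 70, of which 51 had a probe and 38 were tested. Of these, 23 had a mean above 0 and 15 below, with a median of 0.049. At an unadjusted p under 0.05, 1 was on the rostral side (Rai2) and 4 on the caudal side (Rdh10, Stra6l, Ttr and Gprc5c). Of all features, 4.34% were on the rostral and 4.64% on the caudal side at that level. After adjustment 0 passed. Before adjustment 4 differed between the strains (Rdh10, Stra6l, Rai2 and Gprc5c), where 6.1% of all features did.

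Rdh10, which makes retinaldehyde from retinol and so runs opposite to Dhrs3, had a ratio of -1.39, -0.94 and -0.72 in C57 pools 1, 2 and 3, and of -0.016, 0.17 and 0.24 in MF1 pools 1, 2 and 3. As with Dhrs3, every C57 pool lay below every MF1 pool. The C57 mean was -1.02 ± 0.34 and the MF1 mean 0.13 ± 0.13 (SD, n = 3 each), and the difference of -1.15 had an interval of -1.75 to -0.54 (limma, adjusted p = 0.663). The C57 arrays of Rdh10 depended on the dye, at -2.38, -2.72 and -1.195 with rostral RNA in Cy3 and at -0.40, 0.83 and -0.24 with rostral RNA in Cy5.

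Stra6l, a membrane protein related to the cellular receptor for the retinol carrier, had a ratio of -2.10 and -2.44 in C57 pools 1 and 2, and of 0.27, 0.032 and -0.19 in MF1 pools 1, 2 and 3. C57 pool 3 had a value in Cy3 alone, at 1.74, opposite in sign to the C57 pools that entered the fit. The C57 mean was -2.27 ± 0.24 (SD, n = 2) and the difference from MF1 was -2.30, with an interval of -3.001 to -1.61 (limma, adjusted p = 0.532). The arrays of Stra6l in C57 pool 1 gave -4.08 and -0.11.

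Ttr, the blood and choroid plexus protein that carries the retinol carrier, had a ratio of 1.19, -1.72 and -1.69 in C57 pools 1, 2 and 3, and of -1.28, -1.20 and -0.84 in MF1 pools 1, 2 and 3. It lay below 0 in 5 of 6 pools and on 10 of 12 arrays, with C57 pool 1 on the other side. The mean was -0.92 ± 1.09 (SD, n = 6; limma, adjusted p = 0.555), and the strain means were -0.74 ± 1.67 in C57 and -1.11 ± 0.23 in MF1.

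Rai2, named for its induction by retinoic acid, averaged 1.02 ± 0.28 in C57 and 0.23 ± 0.30 in MF1 (SD, n = 3 each). It did not pass over both strains (limma, adjusted p = 0.353). The dye part of Rai2 in C57 was -1.05 ± 1.04 (SD, n = 3). In C57 pool 1 it was -2.24 beside a ratio of 1.14, so the sign turned with the dye there. Gprc5c, an orphan receptor of a family induced by retinoic acid, averaged -0.79 ± 0.13 in C57 and -0.19 ± 0.33 in MF1. Its 2 probes disagreed in both strains, at -0.52 and 0.47 in MF1. In C57 they gave -1.02 and -0.27 in pool 2, and -0.083 and -1.64 in pool 3. Only the second probe entered in C57 pool 1, at -0.88. The C57 dye parts of the probes were -1.05 and 1.02. Aldh1a2 and Aldh1a3, which make retinoic acid from retinaldehyde, had means of 0.085 ± 0.38 and 0.086 ± 0.23. Fabp5, a fatty acid binding protein that can also carry retinoic acid, had a mean of 0.031 ± 0.55 and the receptor Rarg of 0.096 ± 0.34 (SD, n = 6 for these 4). Rarg had 5 probes, which disagreed. Its value of 0.59 in C57 pool 3 held 1 probe at 2.65, while the others with a value there gave 0.195, -0.205 and -0.28. The receptors Rxrb and Rxrg had too few pools to be tested.

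By Euclidean distance between the 6 pool ratios, over 8878 named genes with 6 pools, the patterns most like Rlbp1 were those of Pantr1, at a distance of 0.43, and Zic1, at 0.51. Pantr1 averaged 0.82 in C57 and 0.80 in MF1, and Zic1 averaged 0.81 in C57 and 0.75 in MF1. The nearest to Dhrs3 were Foxn1 at 0.39 and 2310001K24Rik at 0.44, with C57 means of -0.99 and -0.85 and MF1 means of -0.057 and -0.11. The nearest to Crabp1 were 4930579H20Rik at 0.32 and Degs1 at 0.33. Those nearest to Crabp2 were Acaa2 at 0.26 and Capn10 at 0.29, to Rara 2810482I07Rik and Cabyr, both at 0.28, and to Rarb Ccl4 at 0.33 and Slc28a3 at 0.38. The distance ranks likeness over 6 pools and was not tested.

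Genes of neighbouring tissues and cell types were read beside these genes. Over all features, 7437 of 14418 had a mean above 0 and 6981 below. Of 14 genes of choroid plexus and cortical hem, 8 were tested, of which 1 had a mean above 0 and 7 below. Their median per pool was -0.12, -0.52 and -1.09 in C57 pools 1, 2 and 3, and -0.029, -0.13 and -0.21 in MF1 pools 1, 2 and 3. Of the defining genes, Ttr is given above, Folr1 averaged -0.15 in C57 and -0.0040 in MF1, and Clic6 was not tested. Of 23 genes of meninges and mesenchyme, 18 were tested, of which 5 had a mean above 0 and 13 below. Their median per pool was -0.27, -0.088 and -0.28 in C57 pools 1, 2 and 3, and -0.022, 0.031 and -0.061 in MF1 pools 1, 2 and 3. Of the defining genes, Col1a1 averaged -0.89 in C57 and 0.076 in MF1, and Dcn averaged -0.15 in C57 and 0.014 in MF1. Col3a1 and Foxc1 were not tested. Zic1, named above as near to Rlbp1, and Ogn are also on this list. Both were above 0 in 6 of 6 pools, with means of 0.78 and 0.43. Zic1 stood on the list of ventral telencephalon genes too, of which 12 were tested, with 6 means above 0 and 6 below. Of the defining genes of that list, Dlx2 averaged 0.23, Dlx5 -0.63 and Gad2 -0.088. Over the strain means of its genes, the choroid plexus and hem list had a median of -0.59 in C57 and -0.23 in MF1. That of meninges and mesenchyme was -0.15 in C57 and -0.0085 in MF1. Among radial glia genes, 10 of 12 tested had a mean above 0. Their pool medians ran from 0.068 to 0.33 in C57 and from 0.031 to 0.21 in MF1. Of their defining genes, Pax6 averaged 0.40 (6 of 6 pools above 0), Fabp7 0.21 (4 of 6) and Sox2 0.047 (2 of 6). Vim and Prom1 averaged -0.16 and -0.014. Of the genes of postmitotic cortical neurons, 9 of 11 tested had a mean above 0, with pool medians from -0.020 to 0.38 in C57 and from -0.16 to 0.18 in MF1. The part of these cell types in the retinoid ratios was not tested.

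**Figure D4:**
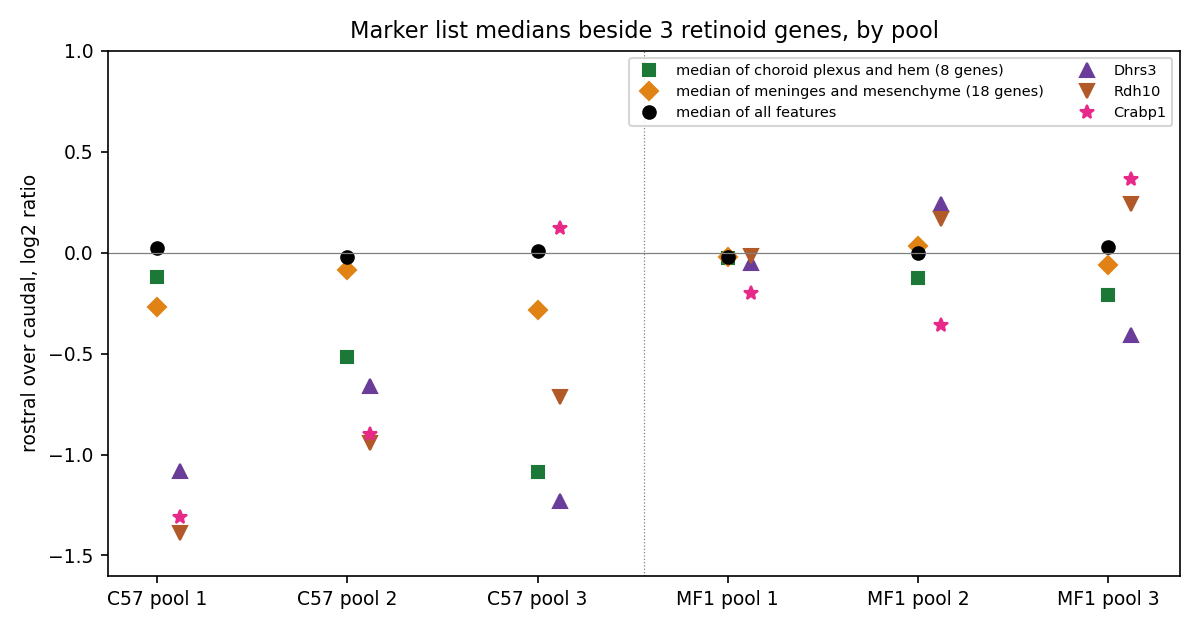
Log2 ratio of rostral over caudal cortex (y axis) in each pool (x axis), as the median of choroid plexus and hem genes (squares), of meninges and mesenchyme genes (diamonds) and of all features (circles), beside Dhrs3, Rdh10 and Crabp1. The list medians of C57 run from -0.12 to -1.09 and from -0.088 to -0.28, and those of MF1 stay between -0.21 and 0.031.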

How the data were processed

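Log2 ratios between both dyes of each of 12 arrays were used as deposited; their scale was read from the values, which are signed with a ceiling of 16.61, and the sources used here do not give image analysis, background correction or within-array normalization. The 701 values at the ceiling were set to missing. Each array was centred on its median and turned to rostral over caudal through the dyes per the labels, and both arrays of a pool were averaged where both had a value. Of 21998 probes, 16864 carried 1 symbol in the platform annotation, 139 several and 4995 none, and 16184 had their Entrez identifier in the RefSeq table (0 symbols replaced). The table held 0 columns of other samples. Probes of a gene were averaged per pool, and a feature needed at least 2 pools per strain. The test was limma 3.58.1 (lmFit, then eBayes; R 4.3.3) on the pool means, in a model that gives each strain its mean and shares the spread. Adjustment was by Benjamini-Hochberg over 14418 features, at a threshold of 0.05. The fit was tested on simulated data. The number of arrays limits the precision, and signal over background is unknown.

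The genes and all lists were chosen with earlier results of these data known. Genes named outside the 9 are the listed pathway genes with an unadjusted p under 0.05 in either comparison, a few fixed enzymes, carriers and receptors, and the 2 genes nearest to each retinoid gene with 6 pools. The strains were not paired by pool number in the main fit, as the labels give only replicate numbers. Deviations of same-numbered pools correlated at -0.18, 0.11 and 0.014. As pools agreed weakly in general, these values cannot settle whether same-numbered pools shared a batch. Alternatives covered centring, scaling, ceiling values, filters, single dyes, a 12-array fit, a replicate block, robust eBayes, single probes and each pool left out.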

Additional observations from a re-analysis of the deposited data

Results flagged for a closer look

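Rxra in C57 pool 3, at -2.01, lay far from the other 4 pools that entered, by Dixon's test at the 95% level over the pools of both strains; its arrays gave -0.32 and -3.705. Ttr in C57 pool 1, at 1.19, lay far above the other 5 pools by the same test. Chance alone flags about 1 in 20 groups in this test. Rai14, a gene named for induction by retinoic acid, had ratios of -0.024, -0.36 and -0.42 in C57 pools 1, 2 and 3. In MF1 pools 1, 2 and 3 the ratios were 0.18, 0.041 and 0.0095, so the pool means of the strains lay on opposite sides of 0. Every C57 pool lay below every MF1 pool, an order seen in 5.7% of features with 6 pools. On single arrays 5 of 6 in C57 and 2 of 6 in MF1 were below 0. The difference of Rai14 between C57 and MF1 was -0.34 and did not pass (limma, adjusted p = 0.944).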

How the results depend on the processing

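Across the alternatives, 264 results stayed the same, 20 turned in sign, 6 counts of passing features moved and 1 gene result newly passed. The 264 hold gene results that kept their sign and side of the threshold. They also hold counts of passing features that stayed at 0, which have no direction. The cause of the changes was not tested. Of all features, 0 passed over both strains on pool means, against 6 with features complete on the 12 arrays and 25 in the 12-array limma fit that takes the pool as a random block. That fit also passed Rlbp1 (0.79, adjusted p = 0.0295), 11 features in C57 and 3 in MF1. In C57, 118 features passed on arrays with rostral RNA in Cy5 alone and 188 on those in Cy3 alone, where 0 passed on pool means. In the fit with the pool number as a replicate block 0 features passed, with Rlbp1 at 0.79 and Dhrs3 at -0.53 (limma, adjusted p = 0.728 for both); the block changed no call.

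Signs turned as follows. With no centring Crabp2 was -0.020, Rarb -0.077 and the C57 minus MF1 difference of Rara 0.018. With arrays scaled the differences were -0.14 for Rlbp1 and 0.079 for Rara, and with complete features 0.085 for Rara. With rostral RNA in Cy5 alone Crabp1 was 0.22, and the differences were 0.64 for Crabp1, 0.048 for Crabp2 and -0.26 for Rarb. With rostral RNA in Cy3 alone Rara was 0.098 and the difference of Rlbp1 was -0.31. Rarb was -0.064 by its probe 2 alone. With each pool left out in turn, Rarb ran from -0.12 to 0.32 and Rxra from -0.84 to 0.31. The differences then ran from -0.27 to 0.62 for Rarb and from -0.25 to 0.085 for Rara. That of Rxra kept its sign, from -2.35 to -0.041. Over all settings run, Rlbp1 stayed between 0.58 and 1.003 and Dhrs3 between -0.80 and -0.27. The number of pools per strain, 3, limits the precision, and signal over background is unknown.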
